A study of Homo sapiens with 6 samples.

Results

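The genes followed here belong to the NRF2 pathway and were read from RNA-seq counts of Molm13-Cas9 cells. They are NFE2L2, which encodes NRF2, its regulators KEAP1 and BACH1, and the target genes HMOX1, ME1, PIR, NQO1, TXNRD1 and SRXN1. The 9 rows with these symbols were taken from the 19845 symbols of the count table, and 8 of them passed the filter on low counts, the exception being SRXN1. HMOX1, ME1 and PIR were chosen by their large fold change in the comparison given here, so their values are a description without a test, whereas the other 6 were listed for their role. Molm13 is a human acute myeloid leukemia line with an MLL rearrangement (MLL-r). All 6 cultures stably expressed the Cas9 nuclease, were transduced by lentivirus with a guide in the ipUSEPR vector and were selected in puromycin. In 3 of them the guide was a control (sgCtrl #1, #2 and #3), and in the other 3 it was directed against COX4I1 (sgCOX4I1 #1, #2 and #3), a nuclear-encoded subunit of respiratory chain Complex IV. Each number stands for a different guide, so the spread within a group includes differences between guides. The time between transduction and RNA extraction is not given in the sources used here.

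As background, NRF2 is a transcription factor that is made continuously and, in unstressed cells, is bound by KEAP1 and passed to a CUL3 ubiquitin ligase for degradation. Oxidants and electrophiles modify cysteines of KEAP1, NRF2 then accumulates, pairs with a small MAF protein and binds antioxidant response elements (AREs) of genes for heme breakdown, NADPH supply, quinone reduction and the glutathione and thioredoxin systems. BACH1 pairs with the same small MAF proteins, represses many of these elements, HMOX1 above all, and is released and degraded when heme binds it. Since both factors are controlled largely as proteins, mRNA counts measure the supply of NFE2L2, KEAP1 and BACH1 transcripts and the output at target genes, but neither protein level nor DNA binding.

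The sequences around the start sites show which members carry the letters of an ARE close to the promoter. RefSeq promoter windows on GRCh38.p14, from 250 bases before to 50 bases after a start site, were searched on both strands for TGACNNNGC, the ARE core, and for TGACTCAGC, a special case of that core that also contains the letters of an AP-1 site. A window was given for 8 of the 9 members, all but HMOX1. The core lay in a window of 4 members (ME1, PIR, TXNRD1 and KEAP1) and TGACTCAGC in 2 (ME1 and PIR). Over all 34796 distinct windows, 13.3% held the core and 0.566% held TGACTCAGC. These are shares of single windows, whereas a member was counted if any of its windows matched, and members had up to 3 windows. The stretches below are shown because ME1 and PIR, both chosen for their rise, share the rarer motif. TXNRD1 is shown because it carried the core in both of its windows. The rarer motif did not always go with a rise of that size. GSTP1 and AIFM2, target genes of the lists below that also carry it, had log2 fold changes of 0.12 and -0.50. They run 5′ to 3′ on the strand of the gene, with 10 bases on each side and the match in capitals. Where the capitals begin with GC, the match is on the opposite strand.
ME1, chr6:83431170-83431198, minus strand: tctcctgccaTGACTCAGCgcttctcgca
PIR, chrX:15493289-15493317, minus strand: gccgcgaagcGCTGAGTCAcggtgaggct
TXNRD1, chr12:104215670-104215698, plus strand: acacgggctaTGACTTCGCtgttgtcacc
TXNRD1, chr12:104286920-104286948, plus strand: gtggatttctGCTTTGTCAttctgactct
The centre of the ME1 match lay at position -133 from the start site and that of the PIR match at position 30, inside the transcribed part of the window. The TXNRD1 matches shown were centred at positions -95 and -98 of different start sites of the gene. ME1 had a further core match at position 15, TXNRD1 at position -4 and KEAP1 at positions -50 and -27. A match of letters is a description of the window and no measurement of binding, and a window without a match says nothing of elements farther away.

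Between 17241014 and 30861943 reads were counted per library, and values are given as CPM, the counts scaled by library size and edgeR's TMM factors to a common total, so that 3 counts, the limit that a count of 0 allows, correspond to 0.0959 to 0.174 CPM by counting error alone. Fold changes compare sgCOX4I1 with sgCtrl, and the adjusted p comes from a quasi-likelihood test in edgeR, adjusted by Benjamini-Hochberg over all 11861 genes tested. COX4I1 itself was measured at 513, 502 and 463 CPM in sgCtrl #1, #2 and #3 and at 132, 378 and 133 CPM in sgCOX4I1 #1, #2 and #3. Thus sgCOX4I1 #2 kept 76.7% of the sgCtrl mean of this mRNA, against 26.7% in sgCOX4I1 #1 and 27.0% in sgCOX4I1 #3. The paper reports, by immunoblot, less COX4I1 protein in cells transduced with sgCOX4I1. Read counts do not measure protein, so these mRNA shares do not rank the cultures by loss of COX4I1 protein. For COX4I1 the log2 fold change was -1.21 (SE 0.29, edgeR adjusted p = 0.0512), and it was -1.89 (adjusted p = 3.37e-06) without sgCOX4I1 #2. All 8 markers of the leukemia line that were looked up (PTPRC, CD33, SPI1, FLT3, HOXA9, MEIS1, MPO and LYZ) passed the count filter. Of these 8, 2 had a log2 fold change above 0 and 6 below 0. MPO, the myeloperoxidase of granule-bearing myeloid cells, fell from 227 ± 8.28 to 109 ± 6.57 CPM (SD, n = 3 each), a log2 fold change of -1.06, and was the only one called by edgeR. LYZ, the lysozyme of myeloid cells, named after its value was seen, had the opposite sign, with a log2 fold change of 0.77 (adjusted p = 0.0534), and limma-voom called 2 of the list. In these bulk samples, fewer cells of a type and less RNA per cell cannot be told apart.

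HMOX1, ME1 and PIR were expressed at low levels in the sgCtrl libraries and reached 207% to 588% of that level after transduction with sgCOX4I1. HMOX1 encodes heme oxygenase 1, which opens heme into biliverdin, iron and carbon monoxide. It was measured at 3.98, 6.84 and 8.45 CPM in sgCtrl #1, #2 and #3 and at 13.3, 37.8 and 17.3 CPM in sgCOX4I1 #1, #2 and #3, from 73 to 650 reads per library. The groups did not overlap, and sgCOX4I1 #2 stood well above the other two, at 2.84 times the lowest library of its group. The mean went from 6.42 ± 2.27 to 22.8 ± 13.1 CPM (SD, n = 3 each), and the log2 fold change was 1.80 (SE 0.34), or 3.48-fold. Without sgCOX4I1 #2 it was 1.25.

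ME1 encodes the cytosolic malic enzyme, which makes NADPH while turning malate into pyruvate. Its values were 2.18, 1.63 and 0.737 CPM in sgCtrl #1, #2 and #3, against 6.73, 5.87 and 4.22 CPM in sgCOX4I1 #1, #2 and #3. Every sgCOX4I1 library was above every sgCtrl library, and sgCtrl #3, at 15 reads, was the lowest of all. The mean went from 1.52 ± 0.728 to 5.61 ± 1.27 CPM (SD, n = 3 each), a log2 fold change of 1.89 (SE 0.32) or 3.70-fold. The estimate moved with the sgCtrl libraries, from 1.54 without sgCtrl #3 to 2.24 without sgCtrl #1.

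PIR encodes pirin, a nuclear iron-binding protein of the cupin family. It was measured at 1.63, 1.14 and 1.47 CPM in sgCtrl #1, #2 and #3 and at 4.28, 4.13 and 3.33 CPM in sgCOX4I1 #1, #2 and #3. Of the 3 genes it had the narrowest spread within both groups relative to its level, from 1.42 ± 0.252 to 3.91 ± 0.511 CPM (SD, n = 3 each). Its log2 fold change of 1.45 (SE 0.25), or 2.74-fold, stayed between 1.32 and 1.56 over all 12 alternative settings. By the size of the rise, ME1 was number 1, HMOX1 number 4 and PIR number 11 of the 11861 genes tested. The next member, NQO1, was number 302 at a log2 fold change of 0.56, and this distance follows from the choice. Calls by at least 2-fold, higher, at an adjusted p under 0.05 made up 0.135% of the genes tested, and nothing is read from the presence of these 3 genes among them, since that contrast chose them.

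**Figure D1:**
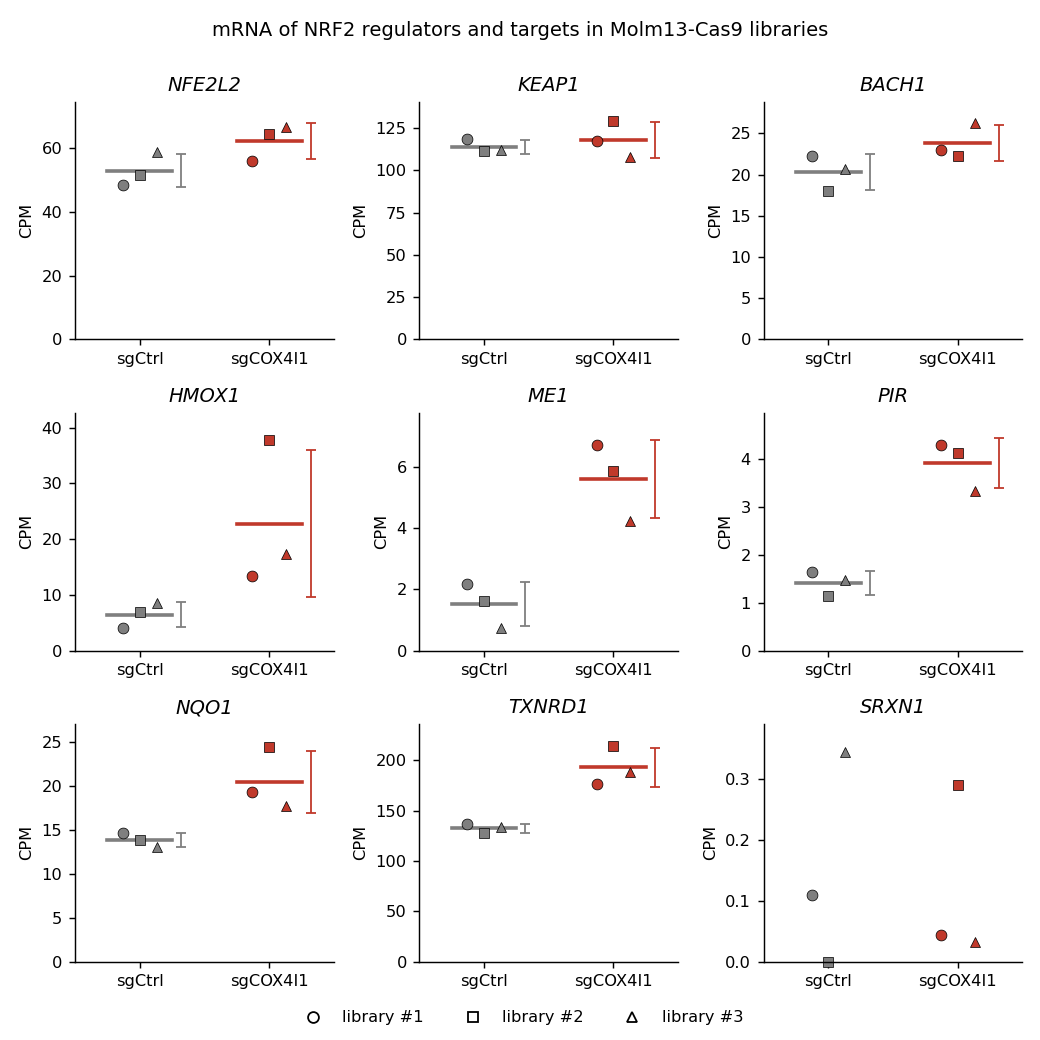
TMM-normalized CPM (linear axes from 0) of the 9 genes in the 3 sgCtrl libraries (grey) and the 3 sgCOX4I1 libraries (red), where symbols mark the library number, horizontal lines the group mean and bars the SD (n = 3), with no mean drawn for SRXN1, which has at most 7 counts in a library. HMOX1, ME1, PIR, NQO1 and TXNRD1 do not overlap between groups, while NFE2L2, KEAP1 and BACH1 do, and the HMOX1 value of sgCOX4I1 #2, at 37.8 CPM, stands apart. HMOX1, ME1 and PIR were chosen for their rise in these groups. Of all genes tested, 11.2% were higher without overlap.

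Among the 6 genes listed for their role, 5 could be tested, and 2 of these, NQO1 and TXNRD1, passed an adjusted p under 0.05 as higher in sgCOX4I1. In the whole table, 1.06% of genes tested were called higher and 2.08% were called in either direction, and 11.2% were higher without overlap between the groups. TXNRD1 encodes cytosolic thioredoxin reductase, a selenoprotein that uses NADPH to keep thioredoxin reduced. It was measured at 136, 127 and 133.6 CPM in sgCtrl #1, #2 and #3 and at 176, 214 and 188 CPM in sgCOX4I1 #1, #2 and #3. The sgCtrl libraries lay close together and all sgCOX4I1 libraries lay above them, with sgCOX4I1 #2 highest. TXNRD1 rose from 132 ± 4.64 to 193 ± 19.3 CPM (SD, n = 3 each), a log2 fold change of 0.54 (SE 0.082, 95% interval 0.36 to 0.72) or 1.46-fold, with an edgeR adjusted p of 0.00461. The call was lost in 1 of 12 alternative settings, without sgCtrl #2, where the adjusted p was 0.0889 at a log2 fold change of 0.51. The adjusted p ranged from 8.64e-07 to 0.0889 over these settings.

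NQO1 encodes NAD(P)H quinone dehydrogenase 1, which reduces quinones by transferring a pair of electrons at once and is among the most used readouts of NRF2 activity. Its values were 14.6, 13.8 and 13.1 CPM in sgCtrl #1, #2 and #3, against 19.3, 24.5 and 17.7 CPM in sgCOX4I1 #1, #2 and #3. Again the groups did not overlap and sgCOX4I1 #2 was highest. NQO1 rose from 13.8 ± 0.768 to 20.5 ± 3.53 CPM (SD, n = 3 each), a log2 fold change of 0.56 (SE 0.13, 95% interval 0.28 to 0.84) or 1.47-fold, with an edgeR adjusted p of 0.0437. This call was close to the threshold and was lost with limma-voom (adjusted p = 0.0641) and without sgCtrl #2 (0.225), sgCtrl #3 (0.0782) or sgCOX4I1 #2 (0.174), so that its adjusted p ranged from 0.00371 to 0.225. Without sgCOX4I1 #2 the log2 fold change of NQO1 was 0.42. By an exact two-sided permutation test over libraries, NQO1 and TXNRD1 each gave p = 0.1, the smallest that 3 against 3 can give.

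SRXN1, the sulfiredoxin that repairs overoxidized peroxiredoxins, had 2, 0 and 7 counts in sgCtrl #1, #2 and #3 and 1, 5 and 1 counts in sgCOX4I1 #1, #2 and #3. It was not tested, and no fold is given. In GENCODE 44, 90.7% of its 2528 exonic bases are shared on the same strand with a protein-coding gene model without a symbol, and the column names of the table point to HTSeq, whose default setting discards a read shared by several genes. The counts therefore may not measure SRXN1 mRNA.

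The transcripts of NRF2 and of its regulators did not pass the test. NFE2L2 was measured at 48.5, 51.6 and 58.8 CPM in sgCtrl #1, #2 and #3 and at 55.8, 64.5 and 66.5 CPM in sgCOX4I1 #1, #2 and #3. The groups overlapped by the lowest sgCOX4I1 and the highest sgCtrl library. Its mean was 53.0 ± 5.26 against 62.3 ± 5.69 CPM (SD, n = 3 each), and the log2 fold change was 0.23 (SE 0.094, 95% interval 0.031 to 0.44), with an unadjusted p of 0.0267 and an edgeR adjusted p of 0.215. Of its exonic bases, 13.6% overlap another gene on the same strand and 24.8% one on the opposite strand.

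KEAP1, the adaptor that presents NRF2 to the ligase, was measured at 119, 111 and 112 CPM in sgCtrl #1, #2 and #3 and at 117, 129 and 108 CPM in sgCOX4I1 #1, #2 and #3. Both the lowest and the highest value belonged to the sgCOX4I1 group. The log2 fold change was 0.049 (SE 0.081, 95% interval -0.12 to 0.22, edgeR adjusted p = 0.803). The sign of this small value turned to -0.019 without sgCOX4I1 #2.

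BACH1, the repressor, was measured at 22.3, 18.0 and 20.6 CPM in sgCtrl #1, #2 and #3 and at 22.9, 22.3 and 26.3 CPM in sgCOX4I1 #1, #2 and #3. The ranges overlapped only at their ends, with sgCOX4I1 #2 just below sgCtrl #1. BACH1 had a log2 fold change of 0.23 (SE 0.11, 95% interval -0.0074 to 0.48, edgeR adjusted p = 0.304). Exact permutation tests gave p = 0.2 for NFE2L2, 0.7 for KEAP1 and 0.2 for BACH1. For these 3 genes a missed threshold does not show that the groups were alike.

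Levels per kilobase of canonical mRNA allow only a rough comparison between genes, since reads may come from any annotated exon. NFE2L2 has 14975 exonic bases but 2446 in its canonical mRNA, whereas ME1 has 3338 of both. On this scale the order of the levels in sgCtrl ran from KEAP1 (44.5 ± 1.57 CPM per kb) and TXNRD1 (34.3 ± 1.20) through NFE2L2 (21.7 ± 2.15) to NQO1 (5.49 ± 0.305), HMOX1 (4.13 ± 1.46), BACH1 (3.62 ± 0.382), PIR (1.11 ± 0.198) and ME1 (0.454 ± 0.218), each with its SD over 3 libraries. In this order HMOX1 was not separated beyond its spread from either of its neighbours, NQO1 above and BACH1 below. In sgCOX4I1 the order was TXNRD1 (49.97 ± 4.99 CPM per kb), KEAP1 (46.0 ± 4.18), NFE2L2 (25.5 ± 2.33), HMOX1 (14.7 ± 8.45), NQO1 (8.13 ± 1.40), BACH1 (4.24 ± 0.383), PIR (3.07 ± 0.401) and ME1 (1.68 ± 0.381). There TXNRD1 and KEAP1 were not separated beyond their spread, nor were HMOX1 and NQO1. PIR and ME1 were the least abundant of the tested members in both groups.

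The members did not share a single pattern over the sgCOX4I1 libraries. HMOX1, NQO1 and TXNRD1 were highest in sgCOX4I1 #2, the library with the most COX4I1 mRNA, at 588%, 177% and 162% of their sgCtrl means. ME1 and PIR were instead highest in sgCOX4I1 #1, at 444% and 302%, and lowest in sgCOX4I1 #3, at 279% and 235%. In sgCOX4I1 #2 they stood at 387% and 291%. With 151 and 101 reads for ME1 and 96 and 71 for PIR, counting error leaves the order of sgCOX4I1 #1 and #2 unsettled. Among the sgCtrl libraries, HMOX1 was lowest and ME1 highest in sgCtrl #1, and in sgCtrl #3 the reverse was measured. Over 28 pairs of members, compared by the root mean square difference of log2 CPM centred on each gene's mean over the 6 libraries, NQO1 and TXNRD1 were closest, at 0.098. ME1 and PIR differed by 0.53 and HMOX1 and ME1 by 0.88 on the same scale. Whether the level of COX4I1 mRNA bears on these differences was not tested, and the counts do not give the level of COX4I1 protein.

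**Figure D2:**
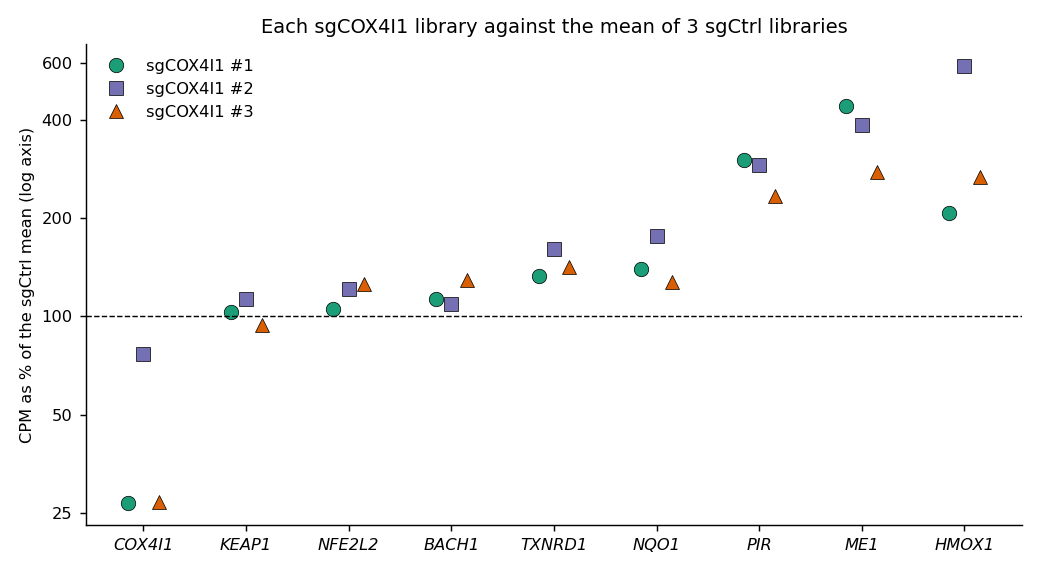
CPM of each sgCOX4I1 library as a percentage of the mean of the 3 sgCtrl libraries (log axis, dashed line at 100%) for COX4I1 and the 8 tested members, 1 symbol per library. COX4I1 stands at 76.7% in sgCOX4I1 #2, and the same library is the highest for HMOX1, NQO1 and TXNRD1. For ME1 and PIR sgCOX4I1 #1 is the highest, by a margin over sgCOX4I1 #2 that their few reads do not settle.

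**Figure D3:**
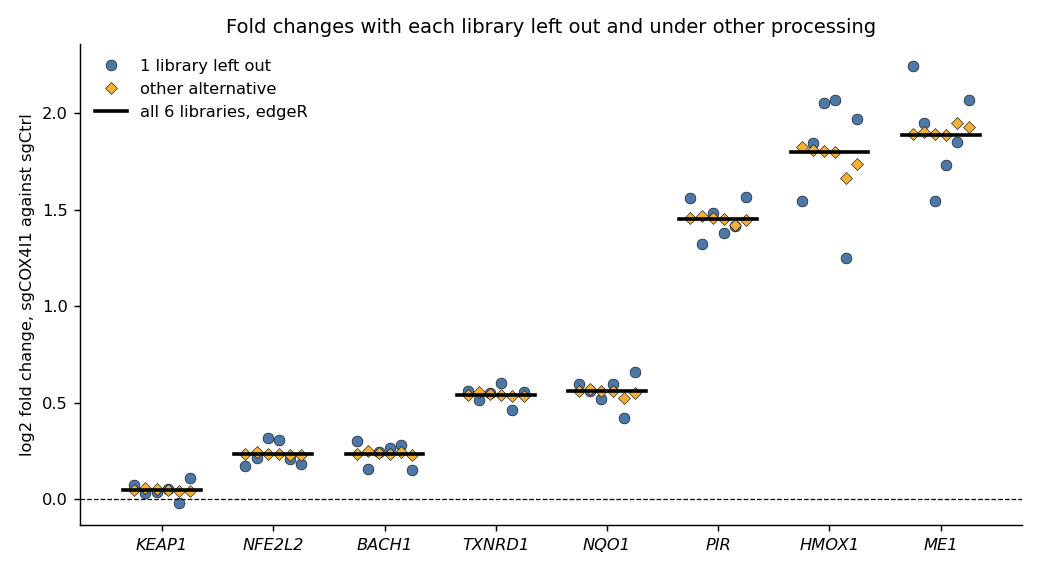
Fitted log2 fold change (sgCOX4I1 against sgCtrl, linear axis) of the 8 tested members with all 6 libraries (black line), with each library left out in turn (blue) and under the other alternative settings (yellow). HMOX1 spans 1.25 to 2.07 and ME1 1.54 to 2.24, PIR stays between 1.32 and 1.56, and KEAP1 alone crosses 0.

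The genes most like HMOX1, ME1 and PIR over the 6 libraries were taken from 11324 genes whose mean reached 1 CPM, by the same root mean square difference. For HMOX1 these were ATP6V0D2 (0.23), a subunit of the vacuolar proton pump, APOE (0.33), the lipid carrier apolipoprotein E, and TMEM86A (0.38). ME1 was nearest to SLC6A9 (0.36), a glycine transporter, ID1 (0.44), an inhibitor of basic helix-loop-helix factors, and CHAC1 (0.46), which degrades glutathione. For PIR they were CHAC1 (0.20), HLA-DRA (0.24), a class II antigen-presenting chain, and OSGIN1 (0.25), itself on the list of detoxification targets. CHAC1 thus stood near both ME1 and PIR, and no gene was shared with the HMOX1 list. The likeness rests on 6 libraries that also share the group difference, and it is given as a description.

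The wider pathway was read from 7 lists with 83 genes, of which 63 could be tested and 10 had no count in any library. At an adjusted p under 0.05, 2 of the 63 were higher (SLC7A11 and FTH1) and 1 was lower (NFE2). Over all genes tested, 1.06% were called higher and 2.08% in either direction. The 5 lists of targets together had 39 tested genes, of which 31 (79.5%) had a log2 fold change above 0 and 12 (30.8%) were higher without overlap between the groups. Over all genes tested, 49.4% were above 0 and 11.2% were higher without overlap. The median log2 fold change was 0.16 for these 39 genes and -0.0023 for all genes tested. Heat shock genes, read below, had 80% above 0, a median of 0.20 and 40% higher without overlap. Monocyte and macrophage markers had 81.8% above 0, a median of 0.35 and 0% higher without overlap. Leukemia line markers had 25% above 0, and the 2 tested epithelial markers 0%. A share of this size above 0 was thus not particular to the target lists. Of the 39 genes, 28 had a RefSeq promoter window, 11 of them with the ARE core in at least 1 window and 2, GSTP1 and AIFM2, with TGACTCAGC. These count a gene by any of its windows, whereas the shares of 13.3% and 0.566% are of single windows. No share per gene over the whole genome was taken, so no excess is read from these counts.

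Among 15 tested genes of glutathione synthesis, use and export, 1 was called. SLC7A11, the cystine importer that feeds glutathione synthesis, was measured at 30.8, 39.5 and 50.4 CPM in sgCtrl #1, #2 and #3 and at 67.3, 94.2 and 83.8 CPM in sgCOX4I1 #1, #2 and #3. All sgCOX4I1 libraries lay above all sgCtrl libraries, and sgCOX4I1 #2 was again the highest. SLC7A11 rose by a log2 fold change of 1.02 (SE 0.15, edgeR adjusted p = 0.00397), a call that was lost in 1 of 12 alternatives, without sgCtrl #2 (adjusted p = 0.0934). The subunits of glutamate-cysteine ligase, the rate-limiting enzyme of glutathione synthesis, are named here after their values were seen. The catalytic GCLC had a log2 fold change of 0.38 (adjusted p = 0.136) and the modifier GCLM one of 0.43 (adjusted p = 0.123), neither of which passed the test with edgeR.

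Of 5 tested genes of heme and iron handling, all had a log2 fold change above 0, with a median of 0.47, and 1 was called. FTH1, the ferritin heavy chain that oxidizes iron for storage, was measured at 689, 781 and 924 CPM in sgCtrl #1, #2 and #3 and at 1035, 1736 and 1267 CPM in sgCOX4I1 #1, #2 and #3. The groups did not overlap, and as for HMOX1 sgCOX4I1 #2 was the highest and sgCtrl #1 the lowest. FTH1 rose by a log2 fold change of 0.75 (SE 0.16, edgeR adjusted p = 0.0277). That call was lost with DESeq2 (adjusted p = 0.0622), without sgCtrl #2 (0.220) and without sgCOX4I1 #2 (0.119), where the log2 fold change was 0.53. Its partner FTL, the ferritin light chain, named after its value was seen, had a log2 fold change of 0.47 with an adjusted p of 0.0574, and was called in 6 of 12 alternatives. FTH1 has many processed pseudogenes that can share its reads.

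None of the 3 tested thioredoxin genes, 5 NADPH genes or 11 detoxification genes was called by edgeR, with 1, 2 and 2 of them at an unadjusted p under 0.05. DESeq2 called only OSGIN1, and limma-voom 0. Small unadjusted p values were common in the whole table. Among all 11861 genes tested in edgeR, the unadjusted p of NFE2L2 (0.0267) was number 1470 from the smallest and that of BACH1 (0.0564) number 2202. The thioredoxin list had a median log2 fold change of 0.19, and its smallest p values were those of PRDX1 (0.19, adjusted p = 0.211), a peroxiredoxin, and TXN (0.23, adjusted p = 0.294), the thioredoxin that TXNRD1 reduces. The NADPH list also had a median of 0.19, with IDH1 (0.20, adjusted p = 0.154) and PGD (0.19, adjusted p = 0.287), which like ME1 make NADPH in the cytosol. Detoxification genes had a median of 0.075. On that list OSGIN1 stood at 1.21 ± 0.0392 CPM in sgCtrl and 2.54 ± 0.383 CPM in sgCOX4I1 (SD, n = 3 each), without overlap, and had a log2 fold change of 1.06 and an adjusted p of 0.0621, with a call in 4 of 12 alternatives. AIFM2, a quinone reductase that limits lipid peroxidation, had a log2 fold change of -0.50 (adjusted p = 0.0952).

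The 17 genes that control NRF2 and BACH1 as proteins or partners (CUL3, small MAF proteins, kinases, F-box proteins and coactivators) gave no call with edgeR, DESeq2 or limma-voom. In edgeR 3 had an unadjusted p under 0.05, as many genes of the whole table did, 11 were above 0 and the median was 0.070. Their smallest p values belonged to PALB2 (log2 fold change 0.32, adjusted p = 0.129), a KEAP1 binder better known from DNA repair, and MAFK (-0.27, adjusted p = 0.193), a small MAF partner of both factors. Of 7 tested paralogs of the members, only NFE2 was called, a partner of small MAF proteins in megakaryocytes and erythroid cells. NFE2 was measured at 104, 96.7 and 101 CPM in sgCtrl #1, #2 and #3 and at 54.0, 55.5 and 56.9 CPM in sgCOX4I1 #1, #2 and #3. It fell in every library, with little spread, by a log2 fold change of -0.86 (SE 0.073, edgeR adjusted p = 8.6e-05), opposite in sign to NFE2L2.

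The paralogs of the enzymes gave smaller values than the members. HMOX1 and ME1 were chosen for their large rise, so for HMOX2 and ME2 this follows from the choice. HMOX2, the constitutive heme oxygenase, had a log2 fold change of 0.16 (adjusted p = 0.305) and ME2, the mitochondrial malic enzyme, one of 0.31 (adjusted p = 0.0518, with a call in 6 of 12 alternatives). NQO2 had 0.15 (adjusted p = 0.517) and TXNRD2, the mitochondrial thioredoxin reductase, -0.18 (adjusted p = 0.326). ME3 and TXNRD3 had no counts in any library, and BACH2 was below the count filter. Differences between the fold of a member and that of its paralog were not tested.

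**Figure D4:**
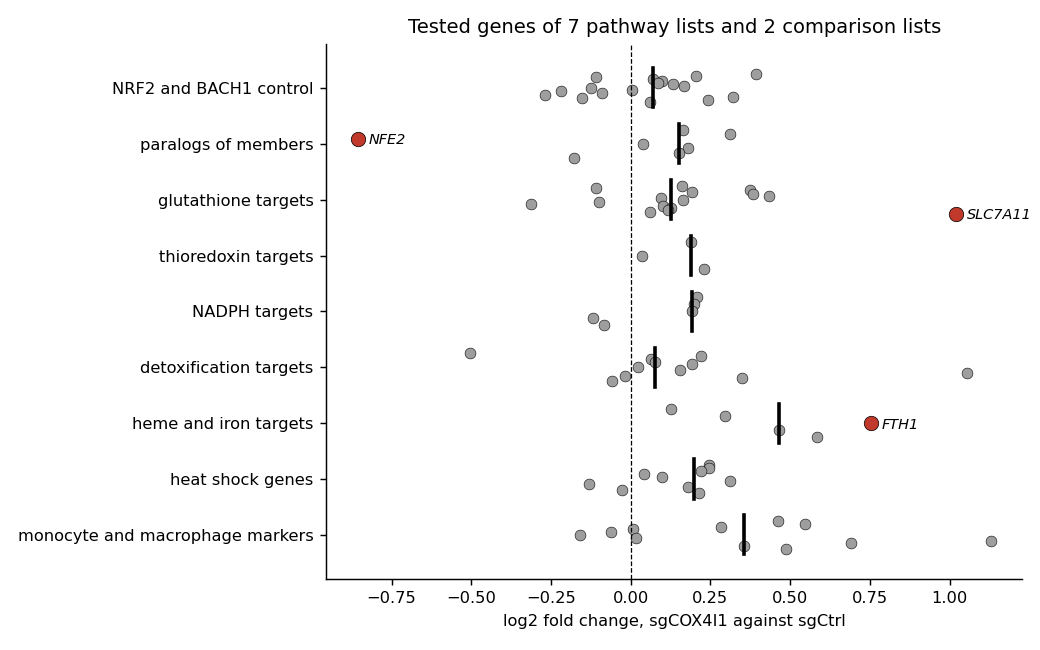
The log2 fold change (sgCOX4I1 against sgCtrl, linear axis, dashed line at 0) of every tested gene in 7 NRF2 pathway lists, the heat shock list and the monocyte and macrophage list, where black bars are list medians and red points are genes with an adjusted p under 0.05. Red points are SLC7A11 at 1.02, FTH1 at 0.75 and NFE2 at -0.86, and most grey points of the target lists lie between 0 and 0.5.

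HMOX1 also responds to heat shock factor and is high in macrophages, so markers of both were read beside it. Of 10 tested heat shock genes none was called by edgeR or limma-voom and 1, HSPA8, by DESeq2. In edgeR 6 had an unadjusted p under 0.05, 8 were above 0 and the median was 0.20, with the smallest p values for HSPA8 (log2 fold change 0.31, adjusted p = 0.0871) and HSPH1 (0.22, adjusted p = 0.169). Of 15 monocyte and macrophage markers 11 were tested, and none was called by edgeR or limma-voom and 1 by DESeq2. In edgeR 2 had an unadjusted p under 0.05, 9 were above 0 and the median was 0.35. MARCO, a scavenger receptor of that list, had a log2 fold change of 0.69 (adjusted p = 0.130). For both lists the whole table is the background, where the unadjusted edgeR p of BACH1 (0.0564) was number 2202 of 11861 from the smallest. Fewer than 2202 of the 11861 genes thus had an unadjusted p under 0.05. The 6 of 10 heat shock genes were a larger share than that, and the 2 of 11 markers lay near that limit. Of all genes tested, 49.4% were above 0, with a median of -0.0023. The summed level of the 15 markers ranged from 335 to 480 CPM in sgCtrl and from 342 to 477 CPM in sgCOX4I1. MRC1 and C1QB had at most 2 counts in any library, C1QC at most 5, and C1QA had 1, 0 and 4 counts in sgCtrl against 4, 9 and 17 in sgCOX4I1. The part of these genes in the HMOX1 difference was not tested.

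Of 8 erythroid markers, where heme genes are high, 6 had no count in any library and none could be tested, and likewise none of 4 lymphoid markers reached the filter. Among 4 epithelial markers EPCAM had no count, and the 2 tested were KRT8 (log2 fold change -0.78, adjusted p = 0.163) and KRT18 (-0.53, adjusted p = 0.182). Neither was called by edgeR, DESeq2 or limma-voom. Both had an unadjusted p under 0.05 in edgeR, as many genes of the whole table did.

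In GENCODE 44 on GRCh38, HMOX1 lies on the plus strand at chr22:35380361-35394214, ME1 on the minus strand at chr6:83210402-83431051 and PIR on the minus strand at chrX:15384799-15493564. NQO1 is on the minus strand at chr16:69706996-69726668, where 19.4% of its exonic bases overlap a gene on the opposite strand, and TXNRD1 on the plus strand at chr12:104215779-104350307. NFE2L2 spans chr2:177218667-177392756 and KEAP1 chr19:10486125-10503558, both on the minus strand, and BACH1 spans chr21:29194071-29630751 on the plus strand. The exons of HMOX1, ME1, PIR, KEAP1 and TXNRD1 overlap no other annotated gene on either strand. The library was directional, and whether the counting used the strand is not given in the sources used here.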

How the data were processed

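The values are raw read counts per gene symbol, as deposited by the authors in a single table of 19845 rows. Labels name bcl2fastq 2.20.0.422, STAR 2.6.0a, edgeR and GRCh38, column names point to STAR, marked duplicates and HTSeq, and the methods describe Trimmomatic, Bowtie2 and RSEM instead. Columns were matched to samples by letter (C for sgCtrl, K for knockout) and guide number. Marked duplicates, if left out of the counts, would lower the values of abundant genes.

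Members and lists were chosen with earlier results of these data known. Counts were analysed in R 4.3.3 with edgeR 4.0.16 (filterByExpr, TMM, quasi-likelihood test without covariates, all 6 libraries). The fits were also run on simulated data, where DESeq2 first exceeded the limit set on wrongly called genes, and that limit was loosened after this was seen. Replicates differed by more than sampling noise (chi-square per degree of freedom 10.6 to 26.6). The labels name no batch. Log2 CPM used a prior count of 2. SEs were derived from the fold change and F. Since replicates are cultures with different guides, p-values measure the spread between these cultures.

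Alternatives were DESeq2 1.42.0, limma-voom (limma 3.58.1), library size without TMM, no count filter, at least 10 counts in every library, a replicate block and leaving out each library. Genes named were the members, COX4I1, called genes of each list (or up to 5, or, where none was called, the 2 with the smallest p), 4 paralogs and the 3 nearest patterns, except that 1 gene is not reported here. Exact permutation tests were two-sided. Gene models matched 18437 symbols.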

Additional observations from a re-analysis of the deposited data

How the results depend on the processing

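Of all genes tested, 247 were called with edgeR, 466 with DESeq2, 537 without the count filter, and 24 to 561 with 1 library left out. sgCtrl #1 (561), sgCtrl #2 (24), sgCOX4I1 #2 (51) and sgCOX4I1 #3 (89) moved this count most. Of the role-chosen members, 2 were called, 1 with limma-voom and 0 to 2 with 1 library left out, with 0 without sgCtrl #2 and 1 without sgCtrl #3 or sgCOX4I1 #2. Of the pathway genes, 3 were called, 7 with DESeq2 (2 of the 3 among them), 9 without the filter, 5 with at least 10 counts in every library, and 1 to 5 with 1 library left out. Without sgCtrl #2 only NFE2 was called, and without sgCOX4I1 #2 FTH1 was not. The log2 fold change of COX4I1 was -1.20 without the filter and -1.40 with limma-voom, both past the threshold, and -1.89 to -0.95 with 1 library left out. COX4I1 missed the threshold in 6 of 12 alternatives. These were DESeq2 (adjusted p = 0.234), no TMM (0.0598), at least 10 counts in every library (0.0522), and leaving out sgCtrl #2 (0.272), sgCOX4I1 #1 (0.0773) or sgCOX4I1 #3 (0.125). Its exact permutation test over libraries gave p = 0.1. KEAP1 turned to -0.019 without sgCOX4I1 #2 and ranged up to 0.11 with other libraries left out. NQO1, TXNRD1, NFE2L2 and BACH1 kept their sign in all 12 alternatives. HMOX1, ME1 and PIR did too, but they were chosen for a large rise in these libraries, so nothing is read from it. The causes were not tested.

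Guide numbers are not a pairing by design, and deviations of same-numbered libraries correlated at 0.38, -0.02 and 0.29. With the replicate block, 1408 genes and 17 pathway genes were called, COX4I1 was -1.39, and NFE2L2 also passed (adjusted p = 0.0250). Not every library correlated best with its own number. ME1 and PIR rest on 15 to 151 and 21 to 104 reads per library, which limits their precision.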

Other observations

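Target genes below the count filter could not be tested, and a pair of them, chosen after their values were seen, had higher counts in most sgCOX4I1 libraries. ALDH3A1, an aldehyde dehydrogenase of the detoxification list, had 2, 4 and 4 counts in sgCtrl #1, #2 and #3 and 13, 5 and 21 in sgCOX4I1 #1, #2 and #3. BLVRA, the biliverdin reductase that acts after heme oxygenase, had 0, 2 and 0 counts in sgCtrl and 7, 6 and 1 in sgCOX4I1. Both lie near the limit of 3 counts that a count of 0 allows in some libraries. These counts are not scaled for depth, and sgCOX4I1 #3 had the most reads. AKR1C2, also untested, had 8, 3 and 7 counts in sgCtrl against 17, 17 and 10 in sgCOX4I1. Scaled for depth its groups overlapped, at 0.436 CPM in sgCtrl #1 and 0.320 CPM in sgCOX4I1 #3. Some other untested genes of these lists split or went the other way. AKR1C3 had 3, 2 and 7 counts in sgCtrl against 4, 0 and 0 in sgCOX4I1, and ABCB6 had 7, 3 and 9 against 0, 3 and 18.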
